A study of Mus musculus with 2 samples.

Results

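B cells of the inflamed mouse colon that carried transcripts of the immediate-early genes Egr1, Egr2, Egr3 and Nr4a1 were examined in droplet single-cell RNA sequencing of lamina propria leukocytes, 2735 of 13923 cells kept in all. Of these, 635 came from the library labelled WT and the other 2100 from the one labelled Ring1AKO. A barcode was kept with at least 1000 UMIs (molecules counted once each by a molecular identifier), at least 500 genes and less than 5% mitochondrial UMIs. It passed the B cell gate with at least 5 UMIs of Cd79a, Cd79b and Ms4a1 together, no UMI of Cd3e, Csf1r or Mki67 and less than 1% of its UMIs from Jchain. Gated B cells with at least 3 UMIs of the 4 immediate-early genes are called members here, and the remaining 426 and 1329 gated B cells the other gated B cells. The WT group was wild-type and the Ring1AKO group carried a knockout of Ring1, which encodes Ring1a, a ubiquitin ligase of polycomb repressive complex 1 (PRC1). Both were C57BL/6 mice of 8 to 10 weeks by the labels, given 2.5% dextran sodium sulfate (DSS) in drinking water for 7 or 8 days to cause colitis. Cells of 5 mice were pooled into 1 library per genotype, with 74414511 and 81862096 UMIs, after digestion for 60 min at 37 °C and sorting of live CD45+ cells, so genotype, library and the mice in it cannot be told apart and no difference between the libraries could be tested. Paired values below are given first for cells labelled WT and then for cells labelled Ring1AKO. No member barcode occurred in both libraries, and 11 kept barcodes did.

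Immediate-early genes are transcribed within minutes of a stimulus, from transcription machinery already present in the cell. In B cells, binding of the antigen receptor raises calcium and MAP kinase signalling and induces Egr and Nr4a factors, and the Nr4a1 reporter is widely used as a read of recent antigen receptor signalling. The same genes also answer to growth factors, Toll-like receptor ligands and tissue dissociation, and their products are followed by feedback inhibitors, NF-kB targets, activation markers and chemokines.

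Members covered a wide range of counts, with no gap at the limit of 3 UMIs. Whether they form a separate group of cells was not tested. No UMI of the 4 genes was found in 12.8% of 1061 and 13.7% of 3429 gated B cells. Both libraries went through the same digestion, and its part in these transcripts was not tested. In members labelled WT the sum had a median of 8 UMIs, quartiles of 4 and 16.5 and a highest value of 76. For Ring1AKO the median was 7, the quartiles 4 and 16 and the highest value 164. Just inside the limit, 100 and 323 members had exactly 3 UMIs, and just outside it 136 and 397 other gated B cells had 2, so the cut fell where cells were many. Members were somewhat deeper than the other gated B cells, with median totals of 4366 and 4514 UMIs (range 2165 to 24421 and 1554 to 51690) against 4036 and 4070.

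**Figure D1:**
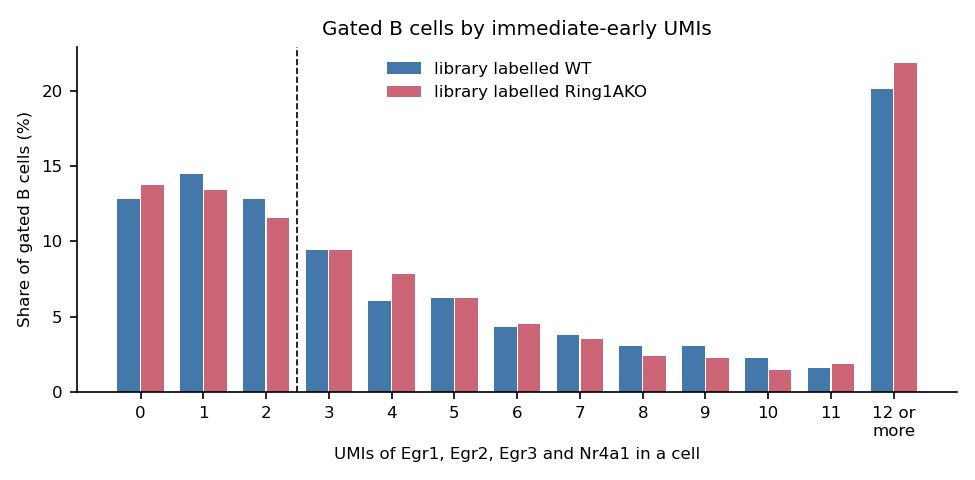
Share of gated B cells (y axis, %) by the number of UMIs of Egr1, Egr2, Egr3 and Nr4a1 in the cell (x axis), with bars for the libraries labelled WT (1061 cells) and Ring1AKO (3429 cells); cells right of the dashed line are members. Both libraries fall from the low counts without a gap at the limit, and the last bars gather the 20.2% and 21.8% of cells with 12 or more UMIs.

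Members made up nearly the same share of gated B cells in both libraries. The shares were 59.8% (95% Clopper-Pearson interval 56.8 to 62.8) and 61.2% (59.6 to 62.9), and the log2 ratio of the second to the first was 0.03 with an interval of -0.05 to 0.11. With every gated B cell thinned to 2000 UMIs, which left out 4 and 21 shallower cells, the shares with at least 3 UMIs were 36.1% and 37.5% (log2 ratio 0.05, -0.08 to 0.18). Cells with at least 10 UMIs were 24.0% and 25.1% of gated B cells before thinning. Intervals here and below cover counting error of these cells or UMIs only, not differences among mice. As a share of all kept barcodes, members were 10.6% of 6005 and 26.5% of 7918, which gave a log2 ratio of 1.33 (1.21 to 1.45), and gated B cells as a whole were 17.7% and 43.3% (log2 ratio 1.29, 1.21 to 1.38). Members thus followed the number of gated B cells between the libraries.

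The 4 genes of the rule encode zinc finger factors (Egr1, Egr2 and Egr3) and an orphan nuclear receptor (Nr4a1, also known as Nur77), and their levels chose the cells and are given as a description. Levels are in CPM, the UMIs of a gene per 1000000 UMIs summed over all cells of the class. Nr4a1 stood at 1299 and 1407 CPM in members, against 123 and 145 in the other gated B cells. Egr3 stood at 544 and 422 CPM against 74.8 and 40.2, Egr1 at 672 and 471 against 13.1 and 11.8, and Egr2 at 114 and 125 against 11.5 and 10.4. Nr4a1 was the common component: 94.5% and 97.1% of members held at least 1 of its UMIs. Egr3 was found in 74.5% and 66.7%, Egr1 in 47.4% and 39.5%, and Egr2 in 27.4% and 30.4%. All 4 genes were seen in 16.7% and 17.3% of members, and 15.3% and 22.7% reached the limit through Nr4a1 alone.

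Transcripts of the 4 genes were also counted in other cells of the same libraries. After the same thinning, at least 3 UMIs of the 4 genes were found in 3.39% and 1.63% of Jchain-high cells (at least 1% of UMIs from Jchain, the joining chain of secreted IgA), before thinning the deepest of the gated cells compared, with median totals of 27144.5 and 33059.5 UMIs against 4184 and 4336 in gated B cells. Cells with at least 2 UMIs of Cd3e, a T cell receptor component, reached 16.7% and 8.17%, and cells with at least 2 of Csf1r, the receptor of monocytes and macrophages, 10.4% and 12.97%. Cells with at least 2 UMIs of Csf3r, the granulocyte colony-stimulating factor receptor of neutrophils, came closest to B cells, at 31.3% (interval 23.6 to 39.9) and 28.9% (21.2 to 37.6) of 134 and 128 cells. Egr3 was low in all of these: it stood at 371 and 288 CPM over all gated B cells and at 59.9 CPM or less in each of the other gates. Without thinning, the shares were 59.8% and 61.2% in gated B cells, 46.9% and 37.4% in Cd3e cells, 46.3% and 43.8% in Csf1r cells, 59.0% and 49.6% in Csf3r cells and 39.5% and 38.3% in Jchain-high cells.

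The label of B cells held for genes that the gate did not read. The 20 genes of a B lineage list summed to 8154 and 7455 CPM in members, against 1710 and 2711 CPM in barcodes with fewer than 100 UMIs, which hold free RNA. Pax5, which holds B cell identity, stood at 329 and 237 CPM and Ebf1, a B lineage factor, at 1533 and 1681. Of the further markers given for these cells, Cxcr5, the receptor that guides B cells to follicles, was at 199 and 176 CPM in members and at 126 and 130 in the other gated B cells, log2 ratios of 0.65 and 0.44. Fcmr, the IgM Fc receptor, was at 292 and 361 CPM in members and at 294 and 372 in the others, so it marked B cells in general and not this state.

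Markers of other cell types were low in members as a whole and high in a few of them. The 5 neutrophil genes summed to 788 and 1274 CPM in members against 61.7 and 147 in the other gated B cells, with S100a9 the most abundant by UMIs, but the median member had 0 UMIs of the list. At least 3 such UMIs were found in 10 of 635 and 61 of 2100 members, and the highest single members held 1064 and 1842. The 7 T cell genes summed to 37.0 and 51.3 CPM in members (20.4 and 31.9 in the others; most abundant Trbc2), the 8 monocyte and macrophage genes to 85.7 and 66.7 (86.3 and 68.2; Lyz2), the 6 dendritic cell genes to 16.5 and 20.7 (9.4 and 18.2; Flt3) and the 7 epithelial and stromal genes to 187 and 151 (164 and 101; Pecam1). The 6 plasma cell genes summed to 395 and 377 (462 and 605; Mzb1, which B cells also express). No gene of these lists was at 0 over all members, while Cd3e, Csf1r and Mki67 were at 0 by the rule. Barcodes with at least 3 UMIs of 1 of the first 4 lists, or of 6 epithelial and stromal genes, are called mixed-marker barcodes: they were 32 members (5.04%) and 104 members (4.95%), and 10 (2.35%) and 36 (2.71%) of the other gated B cells. Mixed-marker members were deeper, with median totals of 7432.5 and 7673.5 UMIs against 4309 and 4472.5 in the rest. The comparison of members with the other gated B cells was repeated without such barcodes.

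In the comparison of members with the other gated B cells, 110 of 8615 genes with at least 100 UMIs (1.28%) were at least 2-fold higher in members in both libraries and 10 (0.116%) were at least 2-fold lower. The rule used this contrast, and nothing is read from these shares. Without the mixed-marker barcodes, an alternative chosen after seeing the data, 31 of 8371 genes (0.37%) were higher and 11 (0.131%) lower, of which 28 and 7 were among the genes counted with all cells. The larger count thus rested in good part on the 5.04% and 4.95% of members with mixed markers, and it is said below where a gene described as 2-fold apart does not stay so without them. Log2 ratios are of CPM with 1 UMI added to each sum. No test was made, with 1 library per group and cells chosen by a related readout, and a difference from the other cells is here a description of what accompanied the 4 genes.

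Relatives of the genes of the rule were among the genes furthest apart above 50 CPM, after S100a8 and S100a9, which are described further on. Nr4a3 (NOR-1) stood at 228 and 223 CPM in members against 39.8 and 38.2 in the other gated B cells, log2 ratios of 2.503 (2.18 to 2.88) and 2.54 (2.35 to 2.75). Nr4a2 (Nurr1) stood at 152 and 193 CPM against 33.5 and 53.3, log2 ratios of 2.16 (1.80 to 2.58) and 1.85 (1.69 to 2.03). Both members of this receptor family that the rule did not read were thus well past 2-fold higher, in each library, in cells picked through Nr4a1 and the Egr genes, and both values were nearly the same without mixed-marker barcodes, at 2.51 and 2.53 for Nr4a3 and 2.08 and 1.82 for Nr4a2.

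The sequence just before the start sites is shown for the 3 genes of this receptor family, of which Nr4a1 was read by the rule. Capitals mark TGACG or its reverse complement CGTCA, the core of the cyclic AMP response element to which CREB binds, searched on both strands. The sequences are the 250 bases before the start in RefSeq's annotation of build GRCm38.p6, written along the gene's strand, at chr15:101266596-101266845 on the plus strand for Nr4a1, chr2:57124004-57124253 on the minus strand for Nr4a2 and chr4:48045055-48045304 on the plus strand for Nr4a3.
Nr4a1: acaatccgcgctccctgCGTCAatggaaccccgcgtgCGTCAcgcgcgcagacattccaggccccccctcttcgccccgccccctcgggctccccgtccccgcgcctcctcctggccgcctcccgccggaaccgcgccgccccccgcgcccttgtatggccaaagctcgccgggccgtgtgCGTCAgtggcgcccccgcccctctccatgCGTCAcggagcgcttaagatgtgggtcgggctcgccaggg
Nr4a2: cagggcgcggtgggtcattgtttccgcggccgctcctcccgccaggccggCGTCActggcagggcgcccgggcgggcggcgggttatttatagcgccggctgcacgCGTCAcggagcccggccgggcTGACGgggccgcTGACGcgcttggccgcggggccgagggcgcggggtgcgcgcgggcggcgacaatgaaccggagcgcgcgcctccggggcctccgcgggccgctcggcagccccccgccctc
Nr4a3: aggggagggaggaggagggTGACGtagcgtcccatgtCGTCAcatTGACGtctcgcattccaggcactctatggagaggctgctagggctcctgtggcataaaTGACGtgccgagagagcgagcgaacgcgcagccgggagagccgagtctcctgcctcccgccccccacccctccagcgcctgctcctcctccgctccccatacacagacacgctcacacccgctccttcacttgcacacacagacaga
Each window held 4 matches, the first 233, 200 and 231 bases before the start and the last 40, 111 and 147 bases before it. Over all 32851 such windows, 17.8% held at least 1 match. Among the 30 immediate-early regulators described next, 23 genes matched the table with 29 windows, and 20 of these windows (69.0%) held it. The full palindrome TGACGTCA, which contains TGACG, was in 13.8% of those 29 windows and 1.55% of all. The CArG box, at which serum response factor binds, was in 6.90% of the 29 windows and 1.47% of all, and in 4 of the 5 windows of Egr2. Egr1 and Egr3 did not match the table. A match describes these letters only and was not tied to any factor here.

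Immediate-early transcription factors and their feedback regulators, 30 genes without the 4 of the rule, were mostly higher in members. In both libraries 8 of the 30 were at least 2-fold higher (5 without mixed-marker barcodes) and none at least 2-fold lower. A positive log2 ratio in both libraries was found for 28 of 29 genes with at least 100 UMIs. This sign count has no share over all genes beside it. The median over the list was 0.84 and 0.69, against -0.04 and -0.01 over all genes counted. Besides Nr4a2 and Nr4a3, the 8 were Fosb, Myc, Gadd45b, Atf3, Ier3 and Maff. Fosb, an AP-1 subunit, stood at 922 and 751 CPM in members against 335 and 263 in the others (log2 ratios 1.46 and 1.51). Myc, the driver of cell growth, stood at 542 and 568 CPM against 168 and 253 (1.69 and 1.17). Gadd45b, a stress-induced regulator of p38 signalling, stood at 302 and 401 CPM against 124 and 146 (1.28 and 1.46). Atf3, Ier3 and Maff, at 79.6 CPM or less in members, fell below 2-fold in 1 library or both once mixed-marker barcodes were left out.

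The AP-1 family did not move as a whole. Fos stood at 1034 and 926 CPM in members against 487 and 556 (log2 ratios 1.08 and 0.74) and Junb at 1497 and 1762 against 879 and 1170 (0.77 and 0.59), while Jund differed less, at 0.32 and 0.41. Jun was the exception of the list, at 596 and 512 CPM in members and 753 and 661 in the other gated B cells, log2 ratios of -0.34 and -0.37. Of the feedback regulators, Dusp2, a phosphatase of MAP kinases, was at 0.75 and 0.77, Dusp1 of the same family at 0.37 and 0.25, and Zfp36, which shortens the life of AU-rich mRNAs, at 0.56 and 0.57. Klf6 and Ier5, also immediate-early genes, were at 0.04 and 0.12 and at 0.02 and 0.02.

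Part of the NF-kB pathway was also higher in members. Of its 17 genes, 5 were at least 2-fold higher in both libraries (4 without mixed-marker barcodes) and none lower, with a list median of 0.65 and 0.81. Nfkbid, a nuclear inhibitor of the family, stood at 588 and 691 CPM against 221 and 249 (log2 ratios 1.41, 1.26 to 1.57, and 1.47, 1.39 to 1.55). Nfkbia, the classical inhibitor that NF-kB itself induces, stood at 537 and 685 CPM against 241 and 272 (1.15 and 1.33). Bcl2a1b and Bcl2a1d, survival genes of a family of near-identical copies whose reads may be split among them, were at 1.66 and 1.49 and at 1.95 and 1.29. Tnfaip3, which encodes the inhibitor A20, was at 1.36 and 1.03, and at 1.25 and 0.89 without mixed-marker barcodes. Among the subunits, Rel, the form prominent in activated B cells, was at 0.91 in both libraries and Nfkb1 at 0.54 and 0.43, whereas Rela (0.32 and 0.20) and Relb (0.29 and 0.24) differed little.

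**Figure D2:**
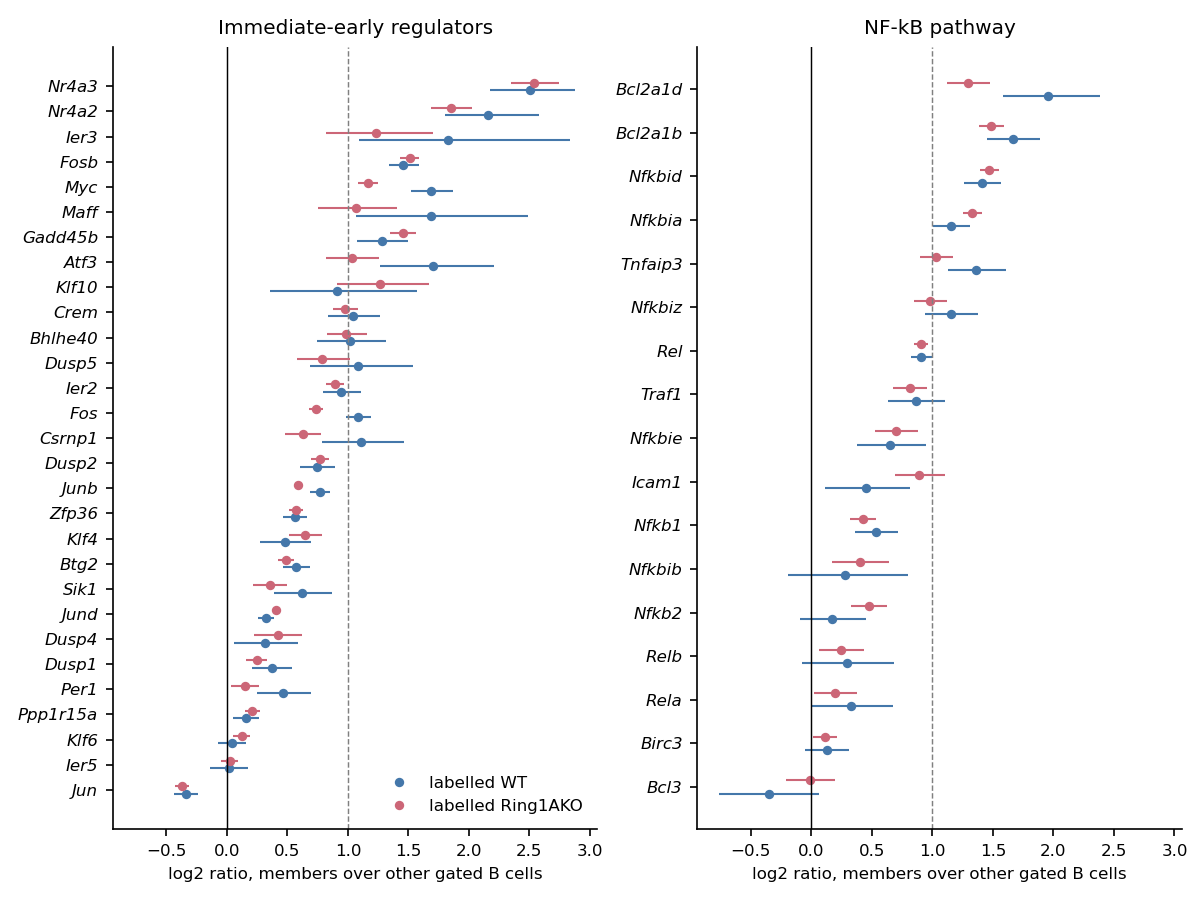
Log2 ratio of CPM, members over other gated B cells (x axis), for 29 immediate-early regulators (left) and 17 NF-kB genes (right) with at least 100 UMIs, in the libraries labelled WT and Ring1AKO; points are ratios, bars exact 95% counting intervals and the dashed line a 2-fold difference. Nr4a3 and Nr4a2 stand at the top of the left panel at 1.85 or more in both libraries, and Jun is the one gene there with a negative ratio in both.

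Of 25 activation genes, 5 were at least 2-fold higher in both libraries and none lower, with list medians of 0.71 and 0.49. Pim1, a serine/threonine kinase that promotes survival, stood at 532 and 682 CPM against 203 and 272 (log2 ratios 1.39 and 1.33), and Marcksl1, an actin-binding protein, at 1.04 and 1.34. Mir155hg, the host transcript of microRNA 155, stood at 29.7 and 18.2 CPM against 6.80 and 5.30 (2.03 and 1.75). Ccl4, a chemokine that B cells release after receptor stimulation, stood at 297 and 231 CPM against 57.5 and 85.7 (2.36 and 1.43), but 61.1% and 51.8% of its UMIs in members came from the 1% of members with most of them. Without mixed-marker barcodes Ccl4 was at 1.37 and 1.04. The fifth gene, Tnf, was at 1.02 and 1.45 and at 0.74 and 1.26 without these barcodes.

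Surface markers of activation were higher by less than 2-fold in at least 1 library. Cd69, an early activation antigen that holds lymphocytes in tissue, stood at 636 and 632 CPM in members against 389 and 379 (log2 ratios 0.71 and 0.74), and Cd83 at 1132 and 1263 against 752 and 804 (0.59 and 0.65). Cd86, a ligand of CD28 on T cells, stood at 182 and 180 CPM against 83.2 and 110 (1.12 and 0.70), and Irf4, induced by receptor signalling in proportion to its strength, at 0.72 and 0.89. Icosl, the ligand of the T cell receptor ICOS, went the other way, at 56.3 and 47.6 CPM against 112 and 68.5 (-0.996 and -0.53). Cd40, the receptor for T cell help, was at -0.38 and -0.18. Cd80, Il10 and Lta stood at 16.8 CPM or less in members of both libraries.

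A small share of genes rose with the number of immediate-early UMIs on both sides of the limit of 3. With gated B cells divided into those with 0, 1 to 2, 3 to 5, 6 to 11 and at least 12 UMIs of the 4 genes, 115 of 8607 counted genes outside the rule (1.34%) rose at every step in both libraries and 52 (0.604%) fell at every step. The rising genes included 9 of 29 immediate-early regulators, 8 of 17 NF-kB genes and 7 of 24 activation genes that were counted. From cells without any UMI to cells with at least 12, Myc went from 120 to 875 and from 212 to 807 CPM. Nfkbid went from 178 to 1000 and from 222 to 1089 CPM, Cd69 from 330 to 862 and from 332 to 843, and Cd83 from 614 to 1464 and from 730 to 1573. Within members, from those with 3 to 5 UMIs to those with at least 12, Myc went from 314 to 875 and from 354 to 807 CPM. Nfkbid went from 308 to 1000 and from 380 to 1089 CPM over the same steps. All steps include mixed-marker barcodes and were not repeated without them. Dcn, a stromal gene, went from 0.855 to 125 and from 4.29 to 81.2 CPM within members. Of counted genes, 3 of 5 epithelial and stromal and 3 of 4 neutrophil genes ended at least 2-fold above cells without any UMI in both libraries. Over all counted genes this held for 246 of 8607. Median totals per cell were higher at the last step than at the first, 4528.5 against 4035.5 and 4870 against 3972 UMIs, and the median ratio of the 30 immediate-early regulators was 0.83 and 0.72 after thinning and 0.81 and 0.64 among barcodes of 3000 to 8000 UMIs.

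**Figure D3:**
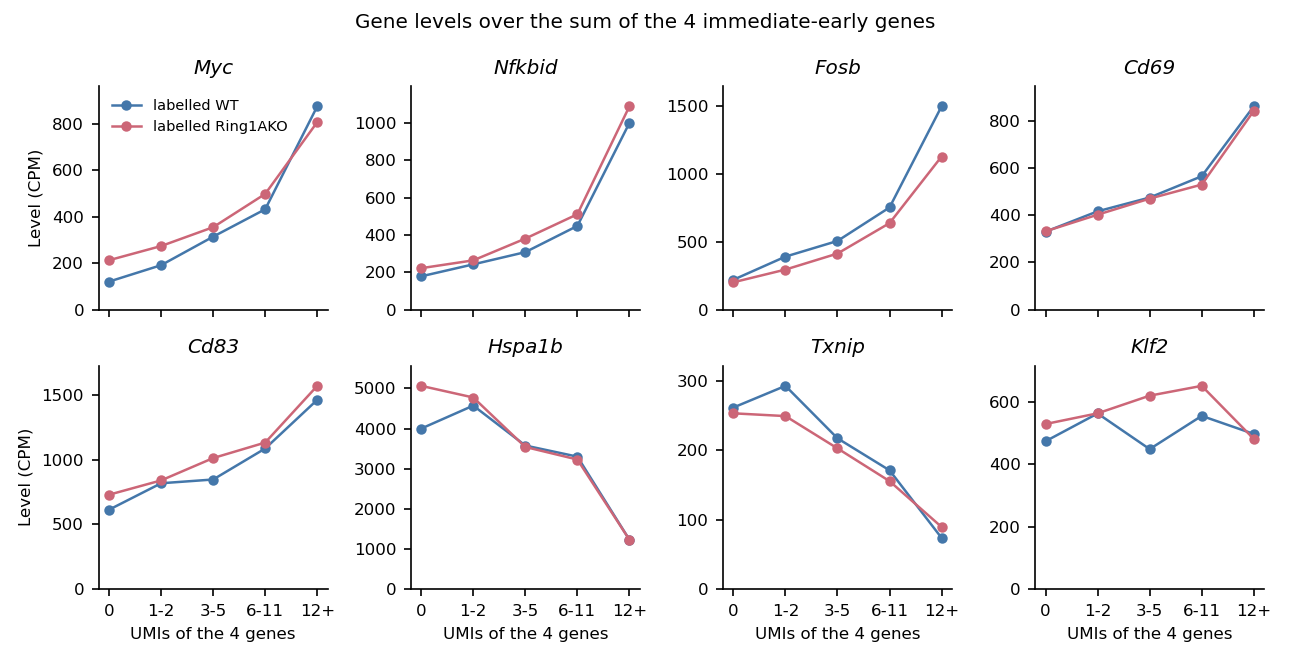
Level of 8 genes (y axis, CPM of summed UMIs) in gated B cells grouped by their UMIs of the 4 immediate-early genes (x axis), by library label; each point is 1 sum over 136 to 858 cells, mixed-marker barcodes included. Myc, Nfkbid, Fosb, Cd69 and Cd83 rise over all 5 groups in both libraries, Hspa1b and Txnip end lowest in the last group, and Klf2 stays between 448 and 650 CPM without a trend.

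Of 13 heat shock genes, chaperones and cochaperones, none was 2-fold apart in both libraries. Negative log2 ratios in both were found for 10 and positive ones for 2. Sign counts here and below have no share over all genes beside them. The list median was -0.25 and -0.18, against -0.04 and -0.01 over all genes counted. The inducible Hsp70 genes were lowest: Hspa1b stood at 2686 and 2555 CPM in members against 4386 and 4872 in the other gated B cells (log2 ratios -0.71 and -0.93) and Hspa1a at 1662 and 1837 against 2650 and 3395 (-0.67 and -0.89). Over the steps of immediate-early UMIs Hspa1b went from 4000 to 1230 and from 5065 to 1230 CPM. Hspa5, a chaperone of the endoplasmic reticulum that is not under the heat shock factor, was higher in members, at 0.42 and 0.36. Hspa1a and Hspa1b are near-identical copies, and reads may be split between them: their windows of 250 bases before the start, at chr17:34972157-34972406 and chr17:34959239-34959488, both on the minus strand in GRCm38.p6, differed at 3 positions. Capitals mark GAANNTTC, a pair of inverted repeats of the heat shock element, searched on both strands, being its own reverse complement.
Hspa1a: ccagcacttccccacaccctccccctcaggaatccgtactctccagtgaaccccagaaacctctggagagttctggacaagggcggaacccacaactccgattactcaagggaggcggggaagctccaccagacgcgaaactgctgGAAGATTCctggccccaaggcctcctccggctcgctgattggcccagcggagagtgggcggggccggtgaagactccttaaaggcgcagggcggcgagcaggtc
Hspa1b: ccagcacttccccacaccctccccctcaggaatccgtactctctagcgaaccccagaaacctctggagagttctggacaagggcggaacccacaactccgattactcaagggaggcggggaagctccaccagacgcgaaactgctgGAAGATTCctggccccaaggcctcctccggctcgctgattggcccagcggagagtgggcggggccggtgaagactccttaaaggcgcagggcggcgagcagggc
Each window held 1 match, 104 bases before the start. It was in 6.69% of all windows, in 5 of 16 windows (31.2%) of the heat shock genes found in the table and in 1 of 29 windows of the immediate-early regulators.

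No counted gene of the antigen receptor pathway was 2-fold apart in both libraries. Of 27 receptor, coreceptor and signalling genes, 17 had negative and 5 positive ratios in both. The medians were -0.10 and -0.20, against -0.04 and -0.01 over all genes counted. Cr2, the complement receptor CD21, stood at 195 and 138 CPM against 301 and 180 (log2 ratios -0.63 and -0.38), and the inhibitory receptors Siglecg (-0.60 and -0.40) and Cd22 (-0.32 and -0.35) were lower as well. Ptpn6, the phosphatase SHP-1 that these receptors recruit, was at -0.41 and -0.51. The kinases Syk (-0.03 in both) and Btk (-0.13 and 0.00) and the phospholipase Plcg2 (-0.02 and -0.01) hardly differed, while Lyn (0.29 and 0.22), the adaptor Pik3ap1 (0.48 and 0.44) and the lipid phosphatase Inpp5d, known as SHIP1 (0.34 and 0.32), were higher.

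Of 20 B lineage genes, 0 were 2-fold apart in both libraries, 15 had negative and 2 positive ratios in both. The medians were -0.19 and -0.14, against -0.04 and -0.01 over all genes counted. The factors Pax5 (-0.05 and -0.15), Ebf1 (-0.18 and -0.09) and Bach2 (0.10 and 0.03) hardly differed, and Tnfrsf13b, the TACI receptor for BAFF and APRIL, stood lower at 73.5 and 49.5 CPM against 119 and 70.8 (-0.70 and -0.52). Ighm and Ighd, the heavy chains of naive B cells, were at -0.38 and -0.28 and at -0.38 and -0.29. Of 10 genes for MHC class II presentation, none was 2-fold apart (medians -0.07 and -0.09): H2-Aa stood at 4158 and 5610 CPM in members against 3991 and 5145, whereas Ciita, the master regulator of these genes, stood at 186 and 125 against 266 and 203 (-0.52 and -0.70).

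Receptors that place B cells in tissue showed small differences, with 0 of 18 genes 2-fold apart in both libraries and medians of 0.08 and 0.10. Gpr183 (EBI2), which draws activated B cells to the outer follicle, stood at 358 and 343 CPM against 268 and 208 (log2 ratios 0.42 and 0.72), and Ccr7, which draws them to the T zone, at 737 and 894 against 596 and 740 (0.31 and 0.27). S1pr1, the receptor through which lymphocytes leave tissue, was lower at -0.41 and -0.28. Klf2, its transcriptional activator, was at -0.10 and 0.06. Germinal centre genes were scarce, with 5 of 12 reaching 100 UMIs. Bcl6, the germinal centre factor, stood at 57.9 and 44.0 CPM against 63.8 and 41.7 (-0.15 and 0.08). Of 16 genes of marginal zone, B-1 and memory cells, 10 reached 100 UMIs. Of these, 6 had negative and 2 positive ratios in both libraries, and the list medians were -0.01 and 0.05. Cd9, a tetraspanin of marginal zone and B-1 cells, was highest among the 10 at 0.997 and 1.09, with 22.7 and 24.5 CPM against 10.98 and 11.4. Without mixed-marker barcodes Cd9 was at 0.78 and 0.72.

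**Figure D4:**
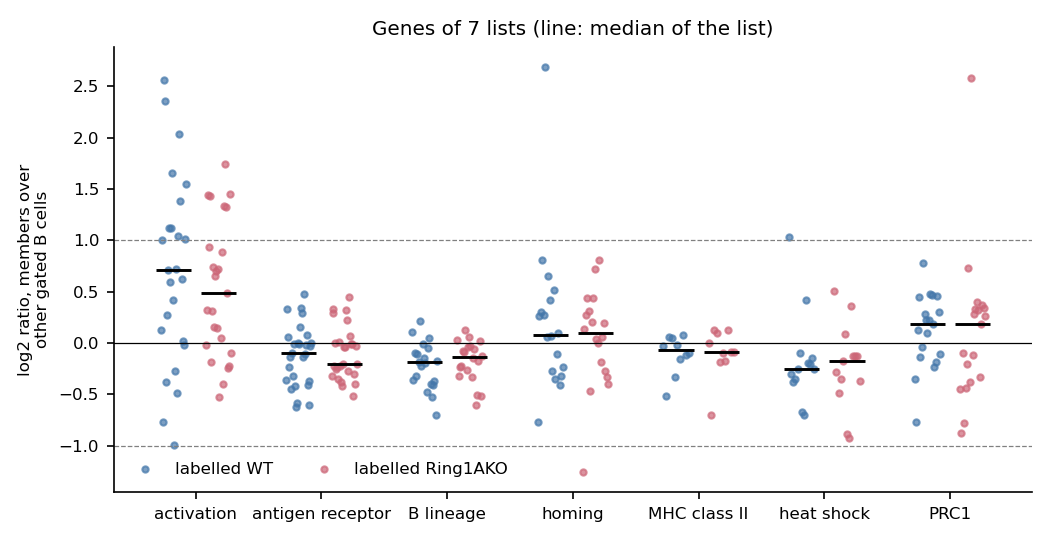
Log2 ratio of CPM, members over other gated B cells (y axis), for every gene of 7 lists (x axis) in the libraries labelled WT and Ring1AKO; points are genes, including those under 100 UMIs, black lines list medians and dashed lines 2-fold differences. The median of the activation list is 0.71 and 0.49, and the medians of the other lists lie between -0.25 and 0.19.

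Of the genes named by size alone, 16 higher and 8 lower in members, 7 of the higher ones did not stay 2-fold higher in both libraries without mixed-marker barcodes. S100a8 and S100a9, which form the neutrophil protein calprotectin, stood at 311 and 470 CPM and at 441 and 686 in members, against 23.0 and 52.0 and 34.0 and 81.1 in the others, and the top 1% of members (7 and 21 cells) held 94.8% and 94.5% of the S100a8 UMIs. Without mixed-marker barcodes the log2 ratio of S100a8 went from 3.72 and 3.17 to -0.23 and -0.31. S100a8 and S100a9 are on the neutrophil list that in part defined these barcodes, so a fall was built into that filter. The interferon-induced membrane genes Ifitm1 and Ifitm2, the neutrophil attractant Cxcl2, the calcium-binding S100a6 and Il1b likewise fell to between -0.78 and 0.76 without these barcodes. Named genes that stayed past 2-fold in both libraries were Nr4a3, Nr4a2, Bcl2a1b, Fosb, Ccl4, Nfkbid, Pim1, Bcl2a1d and Rilpl2, a regulator of ciliary membrane content, at 331 and 415 CPM against 134 and 165 (1.30 and 1.33). The lower named genes were less apart, each by less than 2-fold: Txnip, an inhibitor of glucose uptake, stood at 154 and 146 CPM against 282 and 250 (-0.88 and -0.78), Ltb, lymphotoxin beta, at 185 and 171 against 299 and 275 (-0.69 in both) and Marchf1, a ubiquitin ligase that removes MHC class II and CD86 from the surface, at 62.4 and 36.2 against 110 and 58.6 (-0.82 and -0.69). Sema4b, Rnase6, Trim35 and 9930111J21Rik2 lay between -0.88 and -0.72, and Hspa1b is given above.

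Between the libraries, the members labelled Ring1AKO were compared with those labelled WT. Ring1, the gene named in the label, had 53 UMIs (16.2 CPM, 12.2 to 21.2) and 194 UMIs (17.4 CPM, 15.1 to 20.1) in members, a log2 ratio of 0.08 (-0.34 to 0.57). Its transcript thus did not differ as the label would have it, and where the deleted stretch lies relative to the 3' reads is not given in the sources used here, so every direction below is one between libraries as labelled. Its partner Rnf2, which encodes Ring1b, stood at 48.7 and 51.3 CPM (0.07), and none of the 14 PRC1 genes with at least 100 UMIs was 2-fold apart (median -0.17 over all 19).

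Of 7722 genes with at least 100 UMIs in members, 41 (0.531%) were at least 2-fold higher in the library labelled Ring1AKO and 201 (2.6%) at least 2-fold lower, and the median over all of them was -0.15. Without mixed-marker barcodes, 27 of 7399 genes (0.365%) were higher and 191 (2.58%) lower. In the other gated B cells the counts were 40 (0.631%) and 201 (3.17%) of 6338, with a median of -0.16. Of the 242 genes in members, 125 were past 2-fold the same way in the other gated B cells and 218 had the same sign. Most of them thus went the same way in both classes. Whether cells outside the B cell gate differed likewise was not tested.

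Irf1 and Samd9l were among the genes named by size that were lower in members labelled Ring1AKO. Irf1, an interferon-induced factor, went from 138 to 57.8 CPM (-1.25) and Samd9l, an antiviral gene, from 114 to 43.8 (-1.38). Of 12 type I interferon genes 3 had 100 UMIs or more in members, among them Bst2 (-0.29) and Irf7 (-0.68). All 3 had negative ratios and 1 was at least 2-fold lower, against 2.6% of all counted genes. The list median was -1.66, but 9 of the 12 genes were under 100 UMIs. Because 1 UMI is added to each sum, a gene without any, such as Cd3e, stands at -1.77. Nothing is read from this median. H1f4, a linker histone, went from 143 to 34.1 CPM (-2.07), and Ccdc50, Btaf1, Suco, Macf1, Swap70 and Pdia3 lay between -1.54 and -1.13. Itga4, the alpha 4 integrin of gut homing, stood at 259 and 125 CPM (-1.05 in members, -1.03 in the others).

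Higher in members labelled Ring1AKO were Gm43305, from 116 to 419 CPM (1.85, and 2.14 in the others), Acp5, an acid phosphatase, from 47.5 to 106 (1.16 and 1.03), Apoe, the lipid carrier, from 459 to 909 (0.99 and 0.93), and Ubb, a ubiquitin gene, from 1294 to 2156 (0.74 and 0.64). Retnlg, a neutrophil gene, had the highest ratio above 100 CPM (2.06), with 93.1% of its UMIs labelled Ring1AKO in the top 1% of members. Without mixed-marker barcodes, which its own UMIs helped to define, it stood at 2.33 and 7.19 CPM. Aldh2, Tubb4b, Cd81, Napsa and Pgam1 lay between 0.76 and 1.00. Of 10 MHC class II genes none was 2-fold apart between the libraries, and 8 had positive ratios in members (median 0.30 in each class). The invariant chain Cd74 stood at 11844 and 16623 CPM in members (0.49) and at 12103 and 16590 in the others (0.45). Ciita was lower in both (-0.57 and -0.39).

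Between the libraries, immediate-early regulators in members lay near the values over all genes. None of the 30 was 2-fold apart, against 0.531% of all counted genes higher and 2.6% lower. Their median was -0.11, against -0.15 over all genes, and 18 of 29 counted genes were lower in members labelled Ring1AKO. In the other gated B cells the list median was 0.20, against -0.16 over all genes. Nr4a3 was at -0.03, Myc at 0.07 and Fosb at -0.30. Of the genes of the rule, Egr1 was lower in members labelled Ring1AKO (log2 ratio -0.52, -0.59 to -0.44), Egr3 as well (-0.37, -0.45 to -0.29), Egr2 was at 0.13 (-0.03 to 0.31) and Nr4a1 at 0.11 (0.07 to 0.16), all as a description. Activation genes had a median of -0.10 and NF-kB genes of 0.01, with Rel at -0.44 and Nfkbia at 0.35. Cd80, from 15.6 to 3.41 CPM, and Slamf1, from 39.8 to 16.8, were more than 2-fold lower, Cd80 on 51 and 38 UMIs and thus under the limit for counting.

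**Figure D5:**
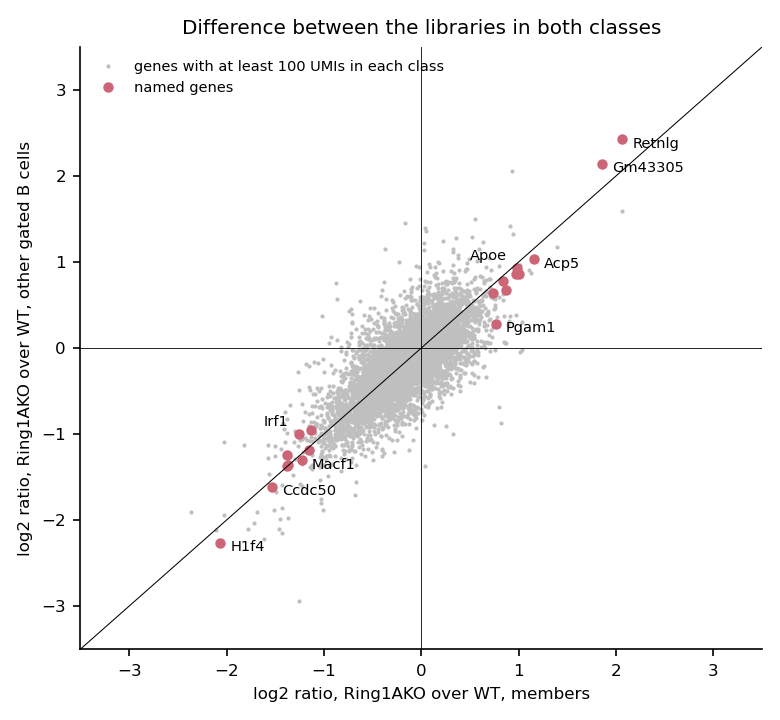
Log2 ratio of CPM, library labelled Ring1AKO over library labelled WT, in members (x axis) and in the other gated B cells (y axis), for genes with at least 100 UMIs in each class (grey) and genes named for the size of this ratio in members (red); 4 of 6328 genes lie outside the axes and the line marks equal ratios. The red genes have the same sign in both classes, and H1f4 (-2.07 and -2.26) is the lowest of them.

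Heavy-chain genes needed their free RNA beside them. Igha, the heavy chain of IgA, stood at 2235 and 2423 CPM in members, close to the 2000 and 2256 CPM in Cd3e cells, which do not make it, and at 69469 and 58438 CPM in barcodes with fewer than 100 UMIs. Its level in members was 3.22% and 4.15% of that free level and is read as background. Ighm (1767 and 1711 CPM in members, 128 and 132 in Cd3e cells) and Ighd (688 and 601, against 5.51 and 9.11) were well above theirs. Ighg1 stood at 69.2 and 168 CPM in members, with 578 and 147 in Cd3e cells, and is not read as expression either. Applied to the 4 genes of the rule, the same shares of the free level would give 17.8 and 28.3 CPM of Nr4a1 and 8.29 and 11.2 CPM of Egr1, below their levels in members and, for Egr1, near those in the other gated B cells.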

How the data were processed

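The deposited files hold raw UMI counts per gene and barcode for 32228 genes, 1 unfiltered 10x 3' matrix per library, made by the authors with Cell Ranger. Its version and build differ between sources: the matrix header gives version 4, the study's methods 3.0.1, and the submitters' processing notes 6.0.2 with mm39 and Seurat. Library totals were 74414511 and 81862096 UMIs. Barcodes were filtered and gated as described above, UMIs were summed per class and library, and CPM and log2 ratios (1 UMI added) were computed with Python 3.11.15, numpy 2.4.6, scipy 1.17.1 and pandas 2.3.3. Poisson, conditional and Clopper-Pearson intervals are exact, at 95%, and cover counting error only. With 1 library of pooled mice per group, no test was made, and a gene was counted as apart at 2-fold or more with at least 100 UMIs (in both libraries for members against other gated B cells). Genes named by size were the 16 highest and 8 lowest in members by the smaller of the 2 libraries' log2 ratios, and the 10 highest and 10 lowest between the libraries, above levels of 50 and 100 CPM. The members, the 20 gene lists and the settings were chosen with earlier results of these data known. Mx1 was the single list gene absent from the features. No doublet caller was run, and mixed-marker barcodes, the deepest barcodes and thinned counts were used in its place. The log2 ratios, their counting intervals and the thinning were tested on simulated data, and the gate was not. Another 16 settings of the gate, the filters, the depth, the denominator and the added count were tried, and 1 was added after seeing the data. A few genes of the lists are not reported here.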

Additional observations from a re-analysis of the deposited data

Results flagged for a closer look

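Directions opposed each other, with counting intervals on both sides of 0, for 9 of 242 genes compared, and the differences were not tested. For the ratio of cells labelled Ring1AKO to cells labelled WT, members and the other gated B cells went opposite ways for Ccl3 (log2 ratio -0.87 in members and 0.75 in the others), Ccl4 (-0.36 and 0.57), Cxcl2 (-0.63 and 0.54), Fos (-0.16 and 0.19), Hspa1b (-0.072 and 0.15), Igha (0.12 and -0.05) and Ighg2b (-1.29 and 5.34). Without mixed-marker barcodes the values were -0.12 and 0.25 for Ccl3, 0.28 and 0.61 for Ccl4, 0.18 and -0.19 for Cxcl2, -0.16 and 0.27 for Fos, -0.078 and 0.18 for Hspa1b, 0.096 and -0.040 for Igha and -1.30 and -0.58 for Ighg2b. The directions then no longer opposed each other for Ccl4 and Ighg2b, and both values of Cxcl2 had changed sign.

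For the ratio of members to the other gated B cells, the libraries went opposite ways for Hsp90ab1 (-0.10 labelled WT and 0.08 labelled Ring1AKO), Ighg2b (0.38 and -6.25) and Ighg2c (0.47 and -1.16). The value of Ighg2b came from few cells: 98.7% of its UMIs in the other gated B cells labelled Ring1AKO were in the 1% of cells with most, and 1 cell held 12387. Without mixed-marker barcodes the ratios were 0.37 and -0.36 for Ighg2b and 0.40 and -0.04 for Ighg2c.

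Transcripts of the 4 immediate-early genes also appeared outside cells, in barcodes with fewer than 100 UMIs. There Nr4a1 stood at 553 and 682 CPM, Egr1 at 258 and 270.2, Egr3 at 58.1 and 115 and Egr2 at 24.6 and 41.6, each below its level in members of the same library.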

How the results depend on the processing

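No paired analysis was possible because each group has 1 library. The number of genes 2-fold apart between members and the other gated B cells was 120 in all and moved with the filter on low counts, to 239 at 30 UMIs and 566 without a filter. It was 51 after thinning to 2000 UMIs, 54 among barcodes of 3000 to 8000 UMIs and 42 without mixed-marker barcodes, and 82 to 137 elsewhere. The part of these that was higher, 91.7%, was 73.8% without mixed-marker barcodes, 75.9% at 3000 to 8000 UMIs and 60.8% without a filter. The 242 genes between libraries became 120 after thinning, 623 at 30 UMIs and 3086 without a filter. The log2 ratio of the share, 0.03, was 1.33 over all kept barcodes.

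The median of the immediate-early regulators stayed between 0.76 and 0.97 in the library labelled WT and between 0.62 and 0.86 in the other. A change of sign was counted only for values at least 2-fold apart as reported. Of 1000 values of named genes under alternatives, 834 stayed within their counting interval, 149 moved outside it, and 17 changed sign. The last were S100a8 (-1.50 and -0.46), S100a9 (-1.36 and -0.24), Ifitm1 (-0.51 and -0.028), Ifitm2 (-0.43 in WT), Cxcl2 (-0.41 in WT) and Il1b (-0.63 in WT) after thinning, S100a8 (-0.23 and -0.31), S100a9 (-0.051 in Ring1AKO), Ifitm1 (-0.78 in WT), Ifitm2 (-0.11 in WT) and Cxcl2 (-0.28 in WT) without mixed-marker barcodes, Ifitm1 (-0.68 in WT) at 5 UMIs of the 4 genes, and S100a6 (-0.11 in Ring1AKO) at 3000 to 8000 UMIs.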

Other observations

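Other genes were also 2-fold apart between members and the remaining gated B cells in both libraries with mixed-marker barcodes left out. They were chosen after their values were seen, and the levels that follow leave those barcodes out. Kdm6b, a demethylase of histone H3 lysine 27, stood at 480 and 580 CPM in members against 196 and 249.8 (log2 ratios 1.29 and 1.21). Orai1, the pore of the store-operated calcium channel, stood at 61.7 and 69.7 CPM against 23.4 and 32.1 (1.38 and 1.11). Cdkn1a, the cell cycle inhibitor p21, was at 1.36 and 1.08.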
